A study of Mus musculus with 6 samples.

Results

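The guanylate-binding proteins are large GTPases that cells make in quantity after interferon stimulation. The genes described are Gbp2, Gbp3, Gbp4, Gbp5, Gbp6, Gbp7, Gbp8, Gbp9 and Gbp10, taken by symbol from the expression table. They are 9 of 54532 genes listed, and all 9 were among the 13441 tested. RNA was sequenced from mouse bone marrow-derived macrophages (BMDMs) that had shared a culture with ID8, a tumour line derived from mouse ovarian surface epithelium. In 1 group of 3 libraries the ID8 cells had first been exposed to 40 µM cisplatin, a chemotherapy drug that damages DNA, and in the other group of 3 libraries they had received phosphate-buffered saline (PBS). The study asked how tumour cells exposed to the drug act on immune cells. The marrow came from C57BL/6 mice 6 to 8 weeks of age. The methods of the study call the cells monocytes and name no growth factor. The duration of the culture and the way BMDMs were parted from ID8 cells are not given in the sources used here. The study's methods speak of biological replicates without saying whether libraries of a group came from separate cultures or animals, so p-values measure the spread between these libraries, which may be technical in part.

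Guanylate-binding proteins bind GTP, assemble on the membranes of vacuoles that hold microbes and on the surface of bacteria in the cytosol, and help to expose them to inflammasomes, the complexes that activate inflammatory caspases. Interferon-γ induces the genes with the help of the transcription factor IRF1, and type I interferons also induce many of them. In the mouse the genes lie in a cluster on chromosome 3 and another on chromosome 5, and macrophages are among the cells in which they have been studied most.

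The promoter sequences are shown first because interferon acts on the family at short DNA elements next to the start of transcription. RefSeq windows on GRCm38.p6 were at hand for 4 of the 9 genes, those of the chromosome 3 cluster, and were not for Gbp4, Gbp6, Gbp8, Gbp9 and Gbp10. The 250 bases before the start are given on the plus strand, which is the strand of all these genes. Capitals mark each match to the core of the interferon-stimulated response element, a direct repeat that interferon-regulatory factors bind, on whichever strand it lies. The windows are chr3:142496684-142496933 for Gbp5, chr3:142530086-142530335 for Gbp7, chr3:142559794-142560043 for Gbp3 and chr3:142620413-142620662 for Gbp2. The window of the neighbouring family gene Gbp2b, chr3:142594597-142594846, is added for comparison.
Gbp5: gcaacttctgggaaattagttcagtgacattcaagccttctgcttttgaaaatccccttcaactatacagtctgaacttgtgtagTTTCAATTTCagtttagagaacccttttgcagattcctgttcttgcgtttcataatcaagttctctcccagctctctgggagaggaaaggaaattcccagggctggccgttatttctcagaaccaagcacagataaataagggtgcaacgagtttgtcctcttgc
Gbp7: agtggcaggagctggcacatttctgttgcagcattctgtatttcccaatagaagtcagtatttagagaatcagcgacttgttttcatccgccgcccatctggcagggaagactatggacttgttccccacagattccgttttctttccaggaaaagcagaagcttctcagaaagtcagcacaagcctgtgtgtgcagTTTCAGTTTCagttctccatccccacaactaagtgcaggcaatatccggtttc
Gbp3: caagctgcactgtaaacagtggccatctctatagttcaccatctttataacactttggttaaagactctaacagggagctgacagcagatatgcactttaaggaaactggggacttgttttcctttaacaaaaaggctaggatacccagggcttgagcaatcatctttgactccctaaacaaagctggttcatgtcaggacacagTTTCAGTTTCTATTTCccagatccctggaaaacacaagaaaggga
Gbp2: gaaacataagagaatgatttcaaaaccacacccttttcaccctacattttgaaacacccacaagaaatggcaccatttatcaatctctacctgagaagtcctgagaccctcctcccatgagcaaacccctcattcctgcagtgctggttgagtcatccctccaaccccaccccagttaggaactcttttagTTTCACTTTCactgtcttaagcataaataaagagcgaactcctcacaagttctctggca
Gbp2b: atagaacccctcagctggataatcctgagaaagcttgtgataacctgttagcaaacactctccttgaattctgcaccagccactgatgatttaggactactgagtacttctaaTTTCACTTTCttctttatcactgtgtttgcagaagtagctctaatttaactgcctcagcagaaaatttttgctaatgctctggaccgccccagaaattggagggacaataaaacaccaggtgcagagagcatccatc

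The core was present in the windows of 4 of the 4 members, and in 3.44% of the 32851 RefSeq windows of 300 bases when both strands were searched. It lay at positions -59 to -50 from the start of Gbp2, -53 to -44 in Gbp7 and -165 to -156 in Gbp5. In Gbp3 a run of repeats gave overlapping matches at -45 to -36 and -39 to -30. A second RefSeq start of Gbp3 had no match in its window. The RefSeq start of Gbp5, at base 142496934, lies inside the span of the gene in the expression table, which begins at 142493978. A longer form of this element, which contains the core, was chosen after the windows had been seen. It was present in 4 of the 4 members and in 0.271% of all windows, while Gbp2b held the core without the longer form. The letters TTCNNNGAA of the gamma-activated site, an element of interferon-γ signalling, were found in Gbp5 and Gbp7 at 2 positions each, against 8.3% of all windows. These letters are matches to a pattern, and binding was not measured.

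Libraries held between 15776238 and 17924686 reads assigned to genes, recovered from the deposited FPKM values (fragments per kilobase of gene length, scaled to library size). Libraries of the same group correlated at Pearson's r of 0.984 to 0.989 across the tested genes, and libraries of different groups at 0.872 to 0.877. A gene was called when its adjusted p was under 0.05 and its log2 fold change on the log2(FPKM + 1) scale was at least 1 in size, with limma and Benjamini-Hochberg adjustment over all 13441 genes. By this rule 1514 genes (11.3% of those tested) were lower and 628 (4.67%) were higher in the cisplatin group, and the median over all genes was -0.00. Scaling to 4 Y-linked genes turned these counts into 5037 and 87, and scaling to macrophage markers into 6133 and 74, with medians over all genes of -0.81 and -0.94. Genes called lower were then 37.5% and 45.6% of those tested. Quantile normalisation gave 1290 lower and 835 higher with a median of 0.10, and voom on recovered reads gave 1861 and 1227.

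All 9 guanylate-binding protein genes were lower in the BMDM libraries made after culture with cisplatin-pretreated ID8 cells. Their log2 fold changes ran from -3.58 to -1.55, with a median of -2.76. In each of them every cisplatin library lay below every PBS library, a separation seen downwards in 37.2% of tested genes. Summed over the family, the level was 540.0 ± 23.1 FPKM (SD, n = 3) in the PBS group and 64.8 ± 2.68 FPKM (n = 3) in the cisplatin group, a ratio of 8.33. The reads behind that sum numbered 30037 to 33474 per PBS library and 4243 to 4777 per cisplatin library. Gbp6, Gbp8 and Gbp10 stayed under 1 FPKM in all 3 cisplatin libraries and so passed the filter on low values (1 FPKM in at least 3 libraries) through the PBS group. For these 3 genes a difference was a condition of being tested, and the count of 9 is not evidence about them. Both ends of the range of the 9 genes, and their median, are values of these 3. The other 6 were above 1 FPKM in all 6 libraries, and 6 of these 6 were called lower (11.3% of all tested genes). The log2 fold changes of the 6 ran from -3.56 to -1.61, with a median of -2.59. In RNA from mixed cells a lower level can come from fewer cells of a type or from less RNA per cell, and the values cannot tell these apart.

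**Figure D1:**
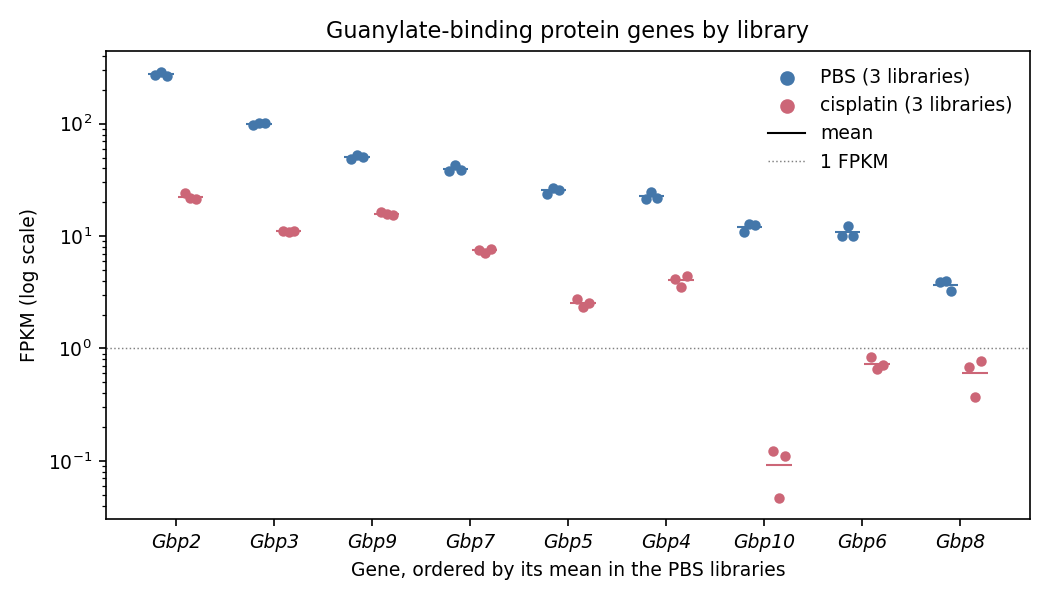
FPKM on a log axis for each of the 9 genes in 3 PBS libraries and 3 cisplatin libraries, with the mean of each group as a short line and 1 FPKM as a dotted line. The points of the groups are apart for every gene, and Gbp6, Gbp8 and Gbp10 lie under 1 FPKM in the cisplatin libraries.

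Gbp2 (ENSMUSG00000028270, GRCm38 chr3:142620602-142638008, plus strand) was the most abundant member in both groups. Its protein gathers on vacuoles that hold pathogens and takes part in the release of microbial DNA to the AIM2 inflammasome. Its level was 268.7, 288.4 and 268.0 FPKM in PBS replicates 1, 2 and 3, and 24.2, 21.6 and 21.5 FPKM in cisplatin replicates 1, 2 and 3. The PBS libraries were close to one another and far above all cisplatin libraries. On the log2 scale the difference was -3.56 (SE 0.06, adjusted p 5.81e-08), and the means, 275.0 ± 11.6 and 22.5 ± 1.51 FPKM, had a ratio of 12.2.

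Gbp5 (ENSMUSG00000105504, chr3:142493978-142522344, plus strand) acts with Gbp2 on cytosolic bacteria and has also been tied to assembly of the NLRP3 inflammasome. PBS libraries had 23.9, 27.1 and 25.8 FPKM, and cisplatin libraries 2.75, 2.34 and 2.55 FPKM. The spread within either group was small beside the gap between them. The difference was -2.91 in log2 units (SE 0.07, adjusted p 1.32e-07), and the ratio of means was 10.1.

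Gbp3 (ENSMUSG00000028268, chr3:142560026-142573209, plus strand) was the second most abundant member in the PBS group. It was at 97.0, 101.5 and 100.9 FPKM in PBS libraries and at 11.0, 11.0 and 11.2 FPKM in cisplatin libraries. On the log2 FPKM scale its replicates lay closest together among the 9 genes, with an SD of 0.02 in the cisplatin and 0.04 in the PBS group. The log2 fold change was -3.06 (SE 0.03, adjusted p 2.87e-08). Gbp7 (ENSMUSG00000040253, chr3:142530342-142550149, plus strand), whose protein helps to bring the phagocyte oxidase to vacuoles that hold bacteria, was at 37.7, 43.1 and 38.9 FPKM against 7.58, 7.11 and 7.72 FPKM. Its fall was the smallest of the chromosome 3 members, at -2.27 (SE 0.06, adjusted p 2.27e-07), a ratio of 5.34. The annotation places another gene, Gm43802, listed at 0 in every library, over 11.3% of the exon bases of Gbp7.

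On chromosome 5, Gbp9 (ENSMUSG00000029298, chr5:105077630-105139539, minus strand) kept the most of its level. It measured 48.4, 52.3 and 50.2 FPKM in PBS libraries and 16.2, 15.6 and 15.4 FPKM in cisplatin libraries. The groups were still far apart, at -1.61 in log2 units (SE 0.04, adjusted p 2.21e-07) and a ratio of 3.19, the smallest ratio of FPKM among the 9 members. Gbp4 (ENSMUSG00000079363, chr5:105115767-105139586, minus strand) was at 21.6, 24.8 and 21.9 FPKM against 4.17, 3.53 and 4.45 FPKM, a log2 difference of -2.24 (SE 0.09, adjusted p 1.12e-06).

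Gbp8 (ENSMUSG00000034438, chr5:105014150-105139540, minus strand) was the least abundant member in the PBS group. Its 3.91, 3.95 and 3.24 FPKM there rested on 238, 212 and 173 reads, and its 0.68, 0.37 and 0.77 FPKM in the cisplatin group on 40, 21 and 44 reads. Cisplatin replicate 2 was the lowest, and even the highest cisplatin library stayed well under the PBS libraries. The log2 difference of -1.55 (SE 0.13, adjusted p 3.91e-05) is understated by the added 1 FPKM, since the ratio of means was 6.07. The annotated span of Gbp8 runs across those of Gbp9 and Gbp4, with 1.77% of its exon bases shared with them.

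Gbp10 (ENSMUSG00000105096, chr5:105215699-105239533, minus strand) showed the largest ratio. PBS libraries held 752, 770 and 758 reads, or 11.0, 12.8 and 12.6 FPKM. Cisplatin libraries held 8, 3 and 7 reads, or 0.12, 0.05 and 0.11 FPKM. The gene was thus near the limit of detection in the cisplatin group while its PBS level resembled that of Gbp6. The log2 fold change was -3.58 (SE 0.08, adjusted p 1.24e-07), the ratio of mean FPKM was 131, and the ratio of reads per total was 122 with a 95% counting interval of 77.1 to 206. That interval covers counting error only.

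Gbp6 (ENSMUSG00000104713, chr5:105270702-105293698, minus strand) was at 10.1, 12.2 and 10.1 FPKM against 0.84, 0.65 and 0.71 FPKM. Its log2 fold change was -2.76 (SE 0.09, adjusted p 5.55e-07) and its ratio of means 14.7. Gbp6 and Gbp10 have near-identical stretches, and their reads are less certain for that. Of all stretches of 100 bases in the annotated transcripts of Gbp10, 73.5% also occur in another gene and 60.1% occur in Gbp6, and of those of Gbp6 64.5% occur in another gene. The gene model Gm43302 overlaps 46.3% of the exon bases of Gbp10 and 29.0% of those of Gbp6, and was itself listed with 4 reads in all PBS libraries and 0 in all cisplatin libraries. Among the other members the share of such stretches was 0 in Gbp2, 10.0% in Gbp7 and at most 4.39% in the rest.

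**Figure D2:**
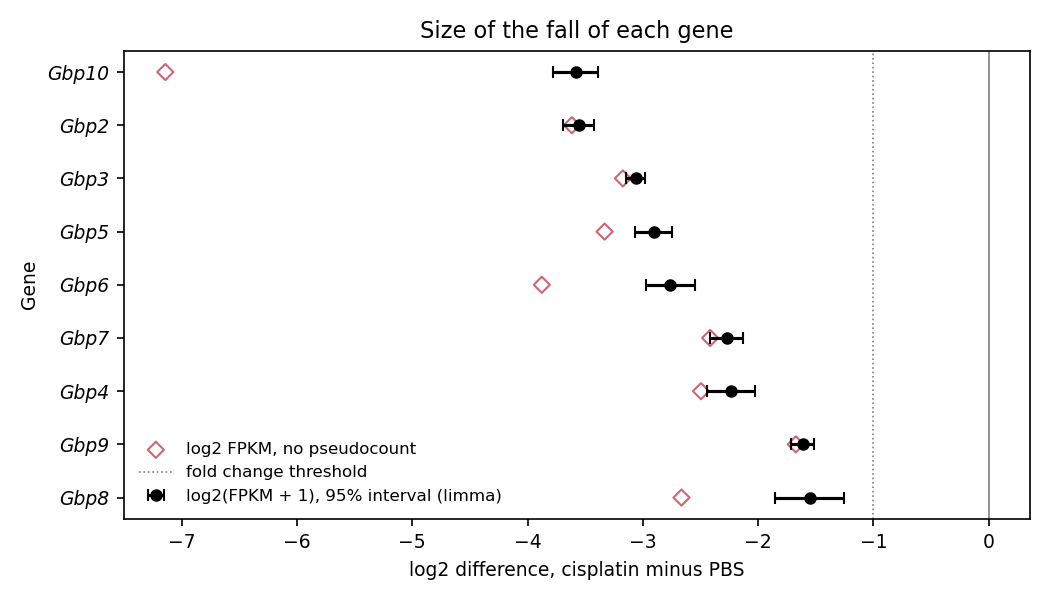
Log2 fold change of each gene, cisplatin minus PBS, on the log2(FPKM + 1) scale with its 95% interval from limma (filled points) and on log2 FPKM with no pseudocount (open diamonds). The diamonds lie further left for each gene, by most for Gbp10 (-7.14 against -3.58) and by least for Gbp9 (-1.67 against -1.61) and Gbp2 (-3.62 against -3.56).

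The members fell by unequal amounts. On the ratio of mean FPKM the order was Gbp10, Gbp6, Gbp2, Gbp5, Gbp3, Gbp8, Gbp4, Gbp7 and Gbp9. On the log2(FPKM + 1) scale the 95% intervals overlapped in 5 of the 36 pairs of genes, namely Gbp10 with Gbp2, Gbp3 with Gbp5, Gbp5 with Gbp6, Gbp7 with Gbp4 and Gbp9 with Gbp8. The differences between genes were not tested one against another, and their order on that scale depends on the level of each gene. By voom the intervals of Gbp10 (-7.90 to -5.92) and Gbp2 (-3.64 to -3.41) lay apart. So did those of Gbp8 (-3.09 to -2.03) and Gbp9 (-1.69 to -1.48), while that of Gbp8 overlapped those of Gbp3, Gbp5, Gbp4 and Gbp7. Among the 6 members above 1 FPKM in all libraries, Gbp2 had the 26th largest fall of the 13441 genes and Gbp9 the 671st.

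The order of levels, which FPKM gives per kilobase of gene length, also differed between groups. In PBS libraries it ran Gbp2, Gbp3, Gbp9, Gbp7, Gbp5, Gbp4, Gbp10, Gbp6, Gbp8, and the ranges overlapped between Gbp5 and Gbp4 and between Gbp10 and Gbp6. In cisplatin libraries it ran Gbp2, Gbp9, Gbp3, Gbp7, Gbp4, Gbp5, Gbp6, Gbp8, Gbp10, and the ranges of Gbp6 and Gbp8 overlapped. Gbp9 thus passed Gbp3, and Gbp4 passed Gbp5. Gbp2 made up 50.9% ± 0.519 (SD, n = 3) of the summed FPKM of the family in PBS libraries and 34.6% ± 1.20 (n = 3) in cisplatin libraries. Gbp9 went from 9.31% ± 0.106 to 24.4% ± 0.663 of the sum although its own FPKM fell. The share of Gbp3 was 18.5% in PBS and 17.1% in cisplatin libraries, that of Gbp7 was 7.38% and 11.5%, and that of Gbp10 was 2.24% and 0.142%.

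**Figure D3:**
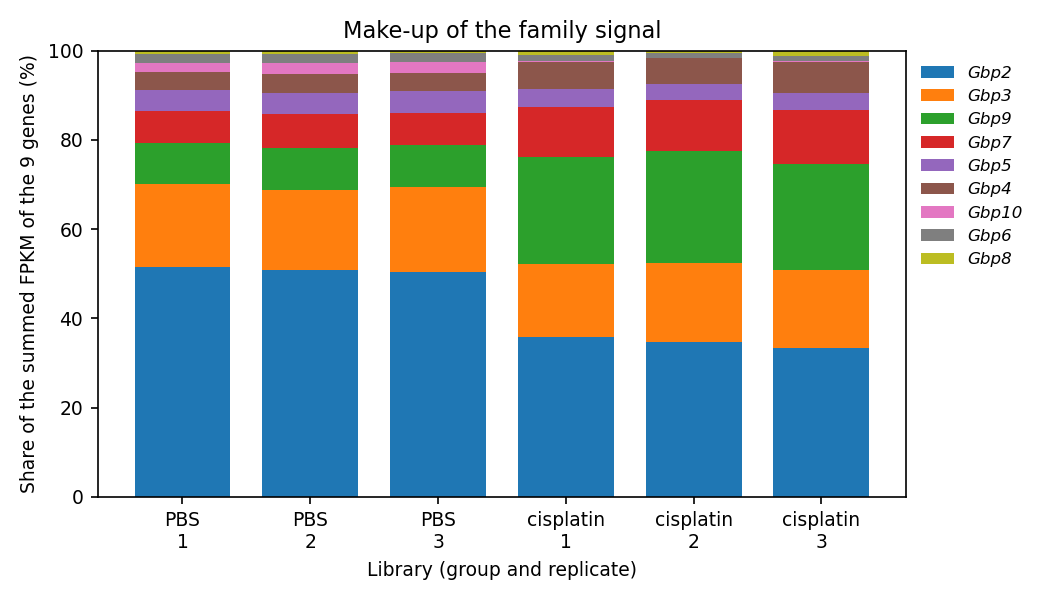
Share of the summed FPKM of the 9 genes (%) taken by each gene, stacked for each of the 6 libraries. Gbp2 takes 50.4% to 51.5% in PBS libraries and 33.4% to 35.8% in cisplatin libraries, and Gbp9 takes 9.23% to 9.43% and 23.9% to 25.1%.

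By position, the 4 genes on chromosome 3 lie within 144 kb and had a median log2 fold change of -2.98, ranging from -3.56 to -2.27. The 5 on chromosome 5 lie within 280 kb (279.5 kb) and had a median of -2.24, ranging from -3.58 to -1.55. The ends of that range are Gbp10 and Gbp8, which passed the filter only through the PBS group. Within 500 kb of either cluster the table lists 35 other genes, of which 12 were tested. Of these 12, 0 were called lower and 1 was called higher by limma and likewise by voom, and 6 had an unadjusted p under 0.05 (70.7% of all tested genes), with a median of -0.10 and a range of -0.71 to 1.12. The gene called higher was 4930519L02Rik near the chromosome 3 cluster, at 1.54 ± 0.365 FPKM in PBS and 4.50 ± 0.586 FPKM in cisplatin libraries (log2 fold change 1.12, adjusted p 0.00024), a call that ended under Y-linked (0.42) and macrophage marker (0.31) scaling. Those scalings, which lower the median of all genes, called 5 and 6 of the 12 neighbours lower and 0 higher. Of all tested genes, 37.5% and 45.6% were called lower under them. The remaining family genes of the clusters were too low to be tested. Gbp2b had 9 reads in the PBS group and 7 in the cisplatin group, and Gbp11, annotated as a polymorphic pseudogene, had 99 and 10 reads.

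**Figure D4:**
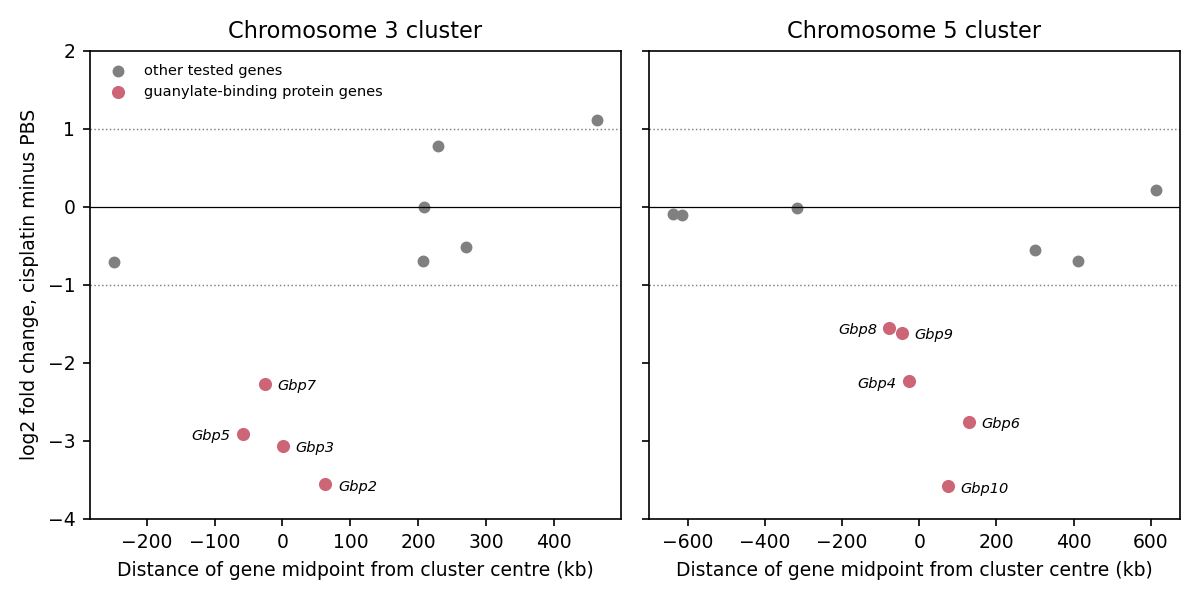
Log2 fold change (cisplatin minus PBS) of the tested genes within 500 kb of the clusters on chromosomes 3 and 5, against the distance of each gene's midpoint from the cluster centre in kb. All 9 family members (red) lie at -1.55 or lower, and the 12 other tested genes (grey) lie between -0.71 and 1.12.

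The genes that act before and beside the family were examined by role, in lists described by their counts and medians. Of 7 interferon genes, 0 reached the level needed for testing, and their summed level was 0.442 to 0.788 FPKM in PBS and 0.395 to 0.526 FPKM in cisplatin libraries. Ifng, which encodes interferon-γ, had 4 reads in all PBS libraries and 16 in all cisplatin libraries, and Ifnb1, which encodes interferon-β, had 18 and 5. Of 7 receptor and kinase genes 0 were called by limma in either direction, or by voom (0), although 4 of the 7 had a p under 0.05 before and after adjustment (70.7% and 68% of all tested genes), with a median of -0.17 and a range of -0.62 to 0.03. Jak1 (-0.62) and Jak2 (-0.45), kinases bound to the receptors, differed most. Ifngr1, the ligand-binding chain of the interferon-γ receptor, measured 31.7 ± 1.04 FPKM in PBS and 32.4 ± 1.83 FPKM in cisplatin libraries (0.03, adjusted p 0.63), a sign that turned when scaled to Y-linked genes (-0.92) or to macrophage markers (-1.06). Its partner Ifngr2 was at -0.17 (adjusted p 0.0073), short of the fold needed for a call. The absence of calls in this list depended on scaling. Under Y-linked scaling 4 of 7 were called lower and under macrophage marker scaling 7 of 7, against 37.5% and 45.6% of all tested genes. Jak1 was then at -1.58 and -1.73, Jak2 at -1.41 and -1.55 and Ifngr2 at -1.12 and -1.26.

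Of 8 transcription factors that act on the family, 5 were called lower and 0 higher (11.3% and 4.67% of all tested genes), with a median of -1.19. Under either Y-linked or macrophage marker scaling 7 of the 8 were called lower, against 37.5% and 45.6% of all tested genes. Irf1, needed for induction of many of these genes by interferon-γ, went from 56.0 ± 1.25 to 22.3 ± 0.573 FPKM (-1.29, adjusted p 2.87e-07). Irf7 (-2.59) and Stat2 (-1.92) fell most in the list, and Batf2 was also called lower (-1.09), a gene that passed the filter only through the PBS group. Irf8, a factor of the macrophage lineage, was at 18.8 ± 0.925 and 26.6 ± 0.922 FPKM, a difference of 0.48 that was not called and that turned negative under scaling to Y-linked genes (-0.45) or macrophage markers (-0.59). Of 6 inhibitors of the pathway, 1 was called lower and 0 higher, with a median of -0.01. Y-linked and macrophage marker scaling each called 3 of the 6 lower (medians -0.89 and -1.02). Over all tested genes they called 37.5% and 45.6% lower (medians -0.81 and -0.94). The gene called without these scalings was Usp18, which restrains the type I receptor, at -1.99. Socs3 was at -0.93, and past the threshold under Y-linked (-1.90) and macrophage marker (-2.04) scaling. Socs1, which blocks Janus kinases, was at 0.23 (adjusted p 0.11), and at -0.63 and -0.76 under those scalings.

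Immunity-related GTPases, smaller interferon-inducible GTPases that act on vacuoles together with guanylate-binding proteins, were called lower in 6 of 7 genes, with a median of -2.25. Tgtp1 was at 21.3 ± 1.32 FPKM in PBS and 1.19 ± 0.179 FPKM in cisplatin libraries (-3.35). Igtp (-2.69) and Irgm1 (-1.82) encode the kind that protects the cell's own membranes. The gene of the list that was not called was Irgq (-0.07), although macrophage marker scaling called 7 of the 7 lower (45.6% of all tested genes). Of 7 tested genes for other large GTPases, 2 were called lower and 0 higher with a median of -0.80, and these were Mx2 (-1.87), annotated here as a polymorphic pseudogene, and Mx1 (-1.25). Intact Mx proteins act against viruses, and many inbred mouse strains carry defective copies. Under the Y-linked and macrophage scalings 7 of the 7 were called lower, with medians of -1.59 and -1.70. Of all tested genes, 37.5% and 45.6% were called lower there.

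Lists for the steps in which guanylate-binding proteins take part followed. Of 10 genes for the conjugation of ATG8 proteins, the machinery that marks vacuoles for these GTPases, 0 were called in either direction by limma and 0 by voom. The median was 0.24, and 10 of the 10 had a p under 0.05 before adjustment and 9 after it, against those 70.7% and 68% of all genes. The largest differences were -0.82 in Map1lc3a and 0.51 in Atg3. Under the Y-linked and macrophage scalings 3 of the 10 were called lower, against 37.5% and 45.6% of all tested genes. Map1lc3a was at -1.68 and -1.80, and Atg3 turned to -0.43 and -0.57. Of 5 genes for prenylation, the lipid anchor that some members carry, 0 were called by limma and 0 by voom, 3 of the 5 had a p under 0.05 before and after adjustment (against the same 70.7% and 68%), and the median was 0.01. Fnta (0.31) and Zmpste24 (0.25) differed most here, and both became negative under those scalings without being called (-0.61 and -0.66 for Y-linked genes, -0.75 and -0.80 for macrophage markers). Of the other prenylation genes, 2 were called lower under each of the scalings, against 37.5% and 45.6% of all tested genes. Of 10 inflammasome and pyroptosis genes, 2 were called lower and 1 higher (11.3% and 4.67% of all tested genes), with a median of 0.30. Gsdmd, which encodes the pore-forming gasdermin D, fell from 161.2 ± 7.70 to 47.0 ± 0.827 FPKM (-1.76, adjusted p 1.66e-07), and Il18 was the other gene called lower (-1.31). The gene called higher was Nlrp3, from 17.4 ± 0.689 to 54.1 ± 2.18 FPKM (1.58, adjusted p 3.41e-07), a call lost under the Y-linked (0.64) and macrophage (0.50) scalings. Casp4, the mouse gene of the lipopolysaccharide-binding caspase-11, was at -0.66, and at -1.58 and -1.72 under those scalings, past the threshold. The DNA sensor gene Aim2 was at 0.37, and at -0.54 and -0.68 under the Y-linked and macrophage scalings.

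**Figure D5:**
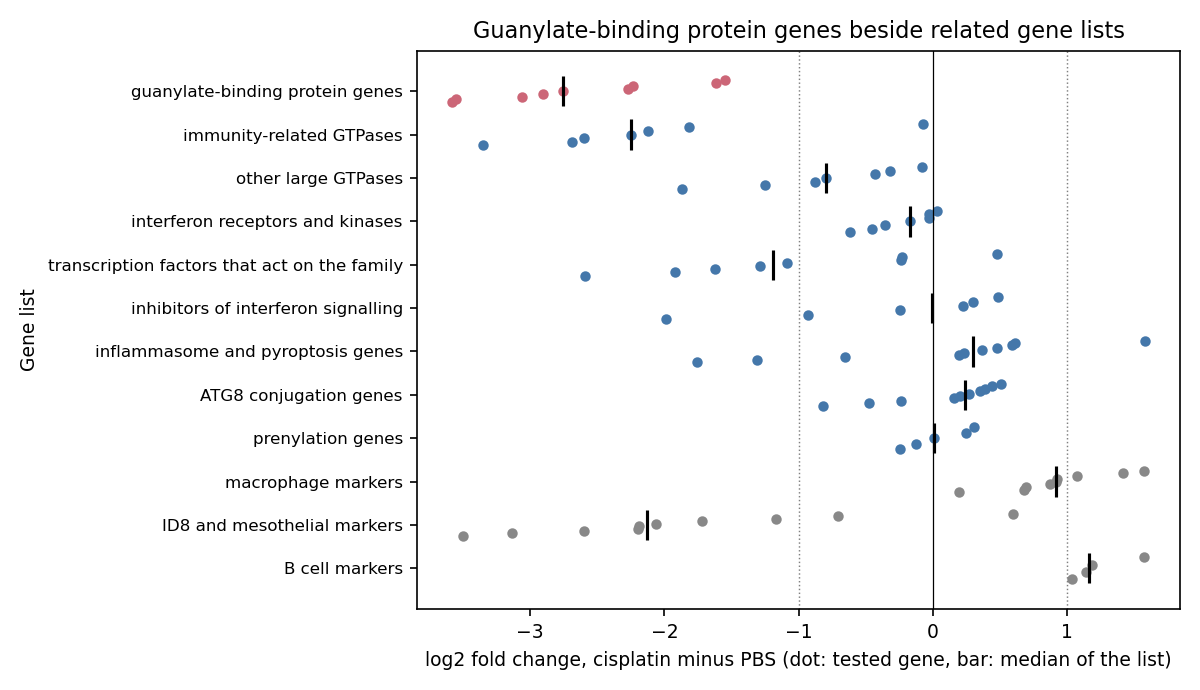
Log2 fold change (cisplatin minus PBS) of each tested gene in 12 lists, each dot a gene and each bar the median of its list, with dotted lines at the fold needed for a call. The family (median -2.76) and immunity-related GTPases (-2.25) lie to the left, receptors and kinases (-0.17) near 0, and ID8 and mesothelial markers (-2.13) to the left as well, while macrophage markers (0.92) and B cell markers (1.17) lie to the right. The 6 family members above 1 FPKM in all libraries have a median of -2.59.

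Markers of the cells that a culture of this kind could hold also differed between the groups, most of those of ID8 and mesothelial cells downwards like the family and most others upwards. Of 9 macrophage markers 9 had a fold change above 0 and 3 were called higher, 1 of which (Mertk) passed the filter only through the cisplatin group. The median of the list was 0.92. Its summed level was 1693 to 1703 FPKM in PBS libraries and 4286 to 4451 FPKM in cisplatin libraries. Most of that sum was 1 gene, with means of 1161 FPKM in PBS and 3459 FPKM in cisplatin libraries. Of 14 ID8 and mesothelial markers 10 were tested, 8 were called lower and 0 higher, the median was -2.13, and the summed level was 1311 to 1414 FPKM in PBS and 247 to 268 FPKM in cisplatin libraries. Among them Krt19, a keratin, had 588 ± 28.8 and 51.1 ± 3.80 FPKM, and Cdh1, a cadherin, went the other way with 3.24 ± 0.521 and 5.41 ± 0.529 FPKM (0.60, not called), while Krt7, Lrrn4, Igfbp5 and Epcam were under 1 FPKM in both groups. All 4 B cell markers were called higher (187.9 to 194.6 and 432 to 442 FPKM summed). Of 5 dendritic cell markers (5.52 to 5.55 and 15.9 to 16.1 FPKM summed over the 5), 4 were tested and 2 were called higher. Of these, Flt3 passed the filter only through the cisplatin group. Of 4 neutrophil markers 1 was called higher (1395 to 1559 and 2618 to 2656 FPKM summed). Most of that sum was a gene that was not called, with means of 1423 and 2581 FPKM. Of 8 T and NK cell markers (8.81 to 9.97 and 11.9 to 14.0 FPKM summed over the 8) 3 were tested. Of 4 endothelial markers (10.9 to 11.5 and 13.8 to 14.6 FPKM summed over the 4) 2 were tested. In both lists 0 were called by limma, though 2 in each had an unadjusted p under 0.05 (70.7% of all genes). The voom fit called 1 endothelial marker lower, and Cd3e and Cdh5 were under 1 FPKM in both groups. The higher calls of markers depended on scaling and model. Macrophage markers called higher numbered 5 by voom and 0 under Y-linked or macrophage marker scaling, and under either scaling 0 B cell markers (medians 0.20 and 0.05) and 0 neutrophil markers were called. Of the dendritic cell markers 1 was called lower and 1 higher under either scaling, and voom called 1 lower and 3 higher. The marker called lower, Zbtb46, passed the filter only through the PBS group. The 4 genes of the Y chromosome, which a line of female origin lacks, were all higher in mean and 1 was called (19.5 to 22.7 and 41.6 to 42.8 FPKM). The libraries thus carried less signal of ID8 and mesothelial markers and more of macrophage markers in the group in which the guanylate-binding protein genes were lower, and the part of this in the result was not tested. Scaled to the macrophage markers, the 9 genes lay between -4.65 and -2.19, and scaled to the Y-linked genes between -4.51 and -2.11. Both references were higher in the cisplatin libraries, so these scalings deepen any fall and cannot show which cells it came from. The ID8 and mesothelial markers themselves went to medians of -3.22 and -3.08 under them.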

How the data were processed

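Poly-T selected RNA of 6 libraries was sequenced, 3 for each pretreatment of the ID8 cells, and the labels gave the groups. Values are the deposited FPKM per gene, made by the authors from reads counted per gene. The submitters' processing notes name fastp, HISAT2 2.0.5, featureCounts 1.5.0-p3 and mm10, whereas the methods of the study name LifeScope, and which made the table is not given in the sources used here, nor is the use of strand. All 11 family genes had the identifier, start and end of GENCODE M21 (GRCm38), and a length equal to the union of their exons. Multiplied by length, the FPKM came out as whole reads (100% of values under 200 reads, within 0.02 reads), which gave the reads printed. The FPKM denominator was 97.4% to 98.7% of the recovered total in PBS libraries and 104% in cisplatin libraries.

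Genes with at least 1 FPKM in at least 3 of 6 libraries were tested on log2(FPKM + 1) in R 4.3.3 by limma 3.58.1 (lmFit and trended eBayes), with group as the only term. Calls needed an adjusted p (Benjamini-Hochberg) under 0.05 together with a log2 difference of 1 or more in size. This scale understates the change of low genes. The fit was tested on simulated data. Tests with 3 libraries against 3 by exact permutation cannot go under p = 0.1 and were not used. The members, lists and marker lists were chosen with earlier results of these data known. Named genes are the members and Gbp2b and Gbp11, a preset choice of interferon genes, the 2 largest differences in each list, called neighbours of the clusters and the 5 genes nearest in profile. Some single-gene values under this rule are not reported here. Batf2, Irgq, Il18, Ifnb1, Gm43302, Gm43802, Mertk, Flt3 and the other single markers were named after their values were seen. Alternatives were another pseudocount (0.1), filter, scaling, model, gene class or call rule, a replicate block, and each library left out in turn. Promoter windows are from RefSeq (GRCm38.p6), and shared stretches were counted over GENCODE M21 transcripts.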

Additional observations from a re-analysis of the deposited data

How the results depend on the processing

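All 9 genes were called lower under each of 20 alternatives except a filter at 5 FPKM, which left 8 and called 8. The share of all tested genes called lower ran from 4.63% (no filter) to 45.6% (macrophage marker scaling) over these settings. Since Gbp6, Gbp8 and Gbp10 passed the filter through the PBS group, the 6 members above 1 FPKM in all libraries were also counted alone. All 6 were called lower under each of the 20, with a median of -2.59 that ranged from -3.57 (macrophage marker scaling) to -2.48 (quantile normalisation). With each library left out in turn, 9 were called each time, 0 were higher, the median of the 9 genes ranged from -2.80 to -2.68, and calls over all genes ranged from 1513 to 1531 lower and from 622 to 671 higher. The median of -2.76 became -3.16 with a pseudocount of 0.1, -3.15 with TPM rescaling, -3.40 with Y-linked scaling, -3.49 with macrophage marker scaling and -3.08 with voom. Genes called higher numbered 973 with a pseudocount of 0.1, 87 with Y-linked scaling, 74 with macrophage marker scaling, 1227 with voom, 4424 by the adjusted p alone and 240 with limma treat. Genes called lower numbered 5037, 6133, 4721 and 982 with Y-linked scaling, macrophage marker scaling, the adjusted p alone and limma treat. The largest adjusted p of a member over the alternatives was 0.021, for Gbp8 under limma treat.

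Among genes outside the family, 15 of 617 values changed sign. Y-linked and macrophage marker scaling move all genes down (medians -0.81 and -0.94), so small positive values turn under them. Under Y-linked and macrophage marker scaling, Irf8 was at -0.45 and -0.59, Ifngr1 at -0.92 and -1.06, Socs1 at -0.63 and -0.76, Aim2 at -0.54 and -0.68, Atg3 at -0.43 and -0.57, Fnta at -0.61 and -0.75, and Zmpste24 at -0.66 and -0.80. With each library left out in turn Ifngr1 ranged from -0.0017 (without cisplatin replicate 1) to 0.0745. A further 23 values passed the threshold only under an alternative (Y-linked or macrophage marker scaling, or the adjusted p alone), and 5 lost it, those of Nlrp3 and 4930519L02Rik under both scalings and of 4930519L02Rik under limma treat.

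The groups share replicate numbers, but deviations of same-numbered libraries correlated at -0.10, -0.09 and -0.02, so the numbers were not taken to pair them. With the replicate number as a block, 9 members, 1515 genes in all were called lower and 625 higher. Depth limits Gbp10 and Gbp8 in the cisplatin group, which rest on 3 to 8 and 21 to 44 reads per library, and shared sequence limits Gbp6 and Gbp10.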

Other observations

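Among the protein-coding genes outside the family whose centred profile lay nearest to the mean profile of the 9 genes were Tjp1, Fam189a2, Prune2 and Me1, by the root mean square difference of log2(FPKM + 1) over the 6 libraries (0.0343, 0.0442, 0.0443 and 0.0542 in that order). The mean profile was 4.95 in the PBS group and 2.34 in the cisplatin group, a difference of -2.62. Tjp1 encodes a scaffold of tight junctions and went from 30.7 ± 2.34 to 4.23 ± 0.398 FPKM (log2 fold change -2.60). Me1 encodes the cytosolic malic enzyme and went from 178.2 ± 4.67 to 26.8 ± 0.429 FPKM (-2.69). Fam189a2 was at -2.61 and Prune2 at -2.60. With 6 libraries in 2 groups, a like profile says little more than a like size of difference between the groups.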
